A study of Mus musculus with 7 samples.

Results

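Adrenergic receptors are the cell-surface receptors for noradrenaline and adrenaline. Here 6 of their genes are described in cells collected as microglia from the mouse hippocampus: Adra2c, Adra2a, Adra1a, Adra1b, Adra1d and Adrb1. They were chosen by symbol from a table of 55401 gene identifiers, with the levels in the compared groups already known. Adra2c led that choice because its level differed between the groups, so the differences between groups given for these 6 genes are a description and carry no test. The related receptor genes Adrb3 and Adra2b are used for comparison.

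The libraries came from C57BL/6 mice aged 6 to 8 weeks, male according to the series title. The dorsal dentate gyrus of all mice was given AAV-RAM-Cre, a virus whose synthetic promoter is switched on in neurons that were recently active, so that Cre marks candidate memory (engram) neurons. In the control group (EYFP, 4 libraries) it was injected together with AAV-Dio-EYFP, a Cre-dependent virus for a fluorescent protein. In the other group (ATG7, 3 libraries) it was injected with AAV-Dio-Atg7-Flag, which carries tagged Atg7, a gene of the autophagy machinery. Cells of the dissociated hippocampus were enriched with beads against CD11b, a myeloid surface protein, and their RNA was sequenced. The comparison asks how the cells collected as microglia differ when the engram neurons, and not the microglia, carry extra Atg7. The labels do not say whether each library is 1 mouse or a pool, so the spread between libraries may be partly technical.

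Noradrenaline reaches the hippocampus from fibres of the locus coeruleus. Alpha-1 receptors (Adra1a, Adra1b, Adra1d) couple to Gq and phospholipase C, alpha-2 receptors (Adra2a, Adra2b, Adra2c) couple to Gi and lower cAMP, and beta receptors (such as Adrb1 and Adrb3) couple to Gs and raise cAMP. Alpha-2 receptors are best known from neurons, where they restrain noradrenaline release and firing.

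Library totals lay between 35934210 and 55217119 counts, and a count of 3, taken as the floor of detection, corresponded to 0.0546 to 0.0819 CPM (the usual depth-scaled counts, with trimmed-mean factors, counting error only). All 10 microglial markers were detected in every library, with summed levels of 20745 to 25135 CPM in EYFP and 20512 to 25243 CPM in ATG7. The 8 choroid plexus markers were also present in every library, at 54765 to 72257 CPM in EYFP and 46379.5 to 61104 CPM in ATG7, so RNA of other cells was measured too. Atg7 itself was at 33.6 to 37.6 CPM in EYFP and 31.9 to 37.4 CPM in ATG7, and it checks no label because the transgene was directed at neurons. The library labelled EYFP 3 had 938 CPM of the X-linked transcript Xist, against 0.1504 to 0.573 CPM in the other libraries. Its Y-linked Ddx3y was at 27.6 CPM, against 121 to 169 CPM elsewhere. This library stands against the male description, and the log2 fold changes of Adra2c and Adrb1 are given with and without it.

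The promoter windows of the 2 alpha-2 receptor genes among the members are shown because the groups were apart for one of these paralogues and overlapped for the other. RefSeq windows on GRCm38.p6, from 250 bases before to 50 bases after a start, were found for 4 of the 6 members. The letters CACGTG, the E-box that several helix-loop-helix factors can bind and the same on both strands, lay once in each of these windows (in capitals), 152 bases before the RefSeq start of Adra2c and 80 bases before that of Adra2a. The stretches, both on the plus strand, are chr5:35278402-35278431 and chr19:54045167-54045196.
Adra2c: caactcaggccaCACGTGacagaacctctg
Adra2a: gggtcgacttccCACGTGggggctgacgcc
These letters occur in 7.15% of all 32851 promoter windows and were absent from the windows of Adra1b, Adrb1 and the other alpha-2 gene, Adra2b. The Adra2a window also held a GC box (GGGCGG, either strand, in 35.7% of windows) and a TATA box (TATAAA, in 13.6%), and the Adra2c window held neither. No window of a member held the cAMP response element TGACGTCA, which 1.79% of windows hold. A match is a run of letters and not a site. In the GENCODE M21 annotation used for coordinates here, both genes start further upstream than in RefSeq, so both printed stretches lie inside annotated exon.

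Adra2c (ENSMUSG00000045318) encodes the alpha-2C receptor, a Gi-coupled receptor best known from the striatum and hippocampus. It lies on the plus strand of chromosome 5 from 35278319 to 35281763 in GRCm38, as 1 exon of 3445 bases with a coding sequence of 1374 bases. Its level was 1.91, 2.68, 1.66 and 2.35 CPM in EYFP 1 to 4, from 70, 123, 75 and 96 counts. In ATG7 1 to 3 it was 0.749, 1.05 and 0.817 CPM, from 30, 58 and 38 counts. All 3 ATG7 libraries were below all 4 EYFP libraries, with ATG7 2, the highest of its group, well under EYFP 3, the lowest of the other. The means were 2.15 ± 0.454 and 0.874 ± 0.161 CPM (SD, n = 4 and 3), or 59.4% lower in ATG7, and the log2 fold change was -1.29 ± 0.253 (SE). In such bulk samples, fewer cells of a type and less RNA per cell cannot be told apart.

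**Figure D1:**
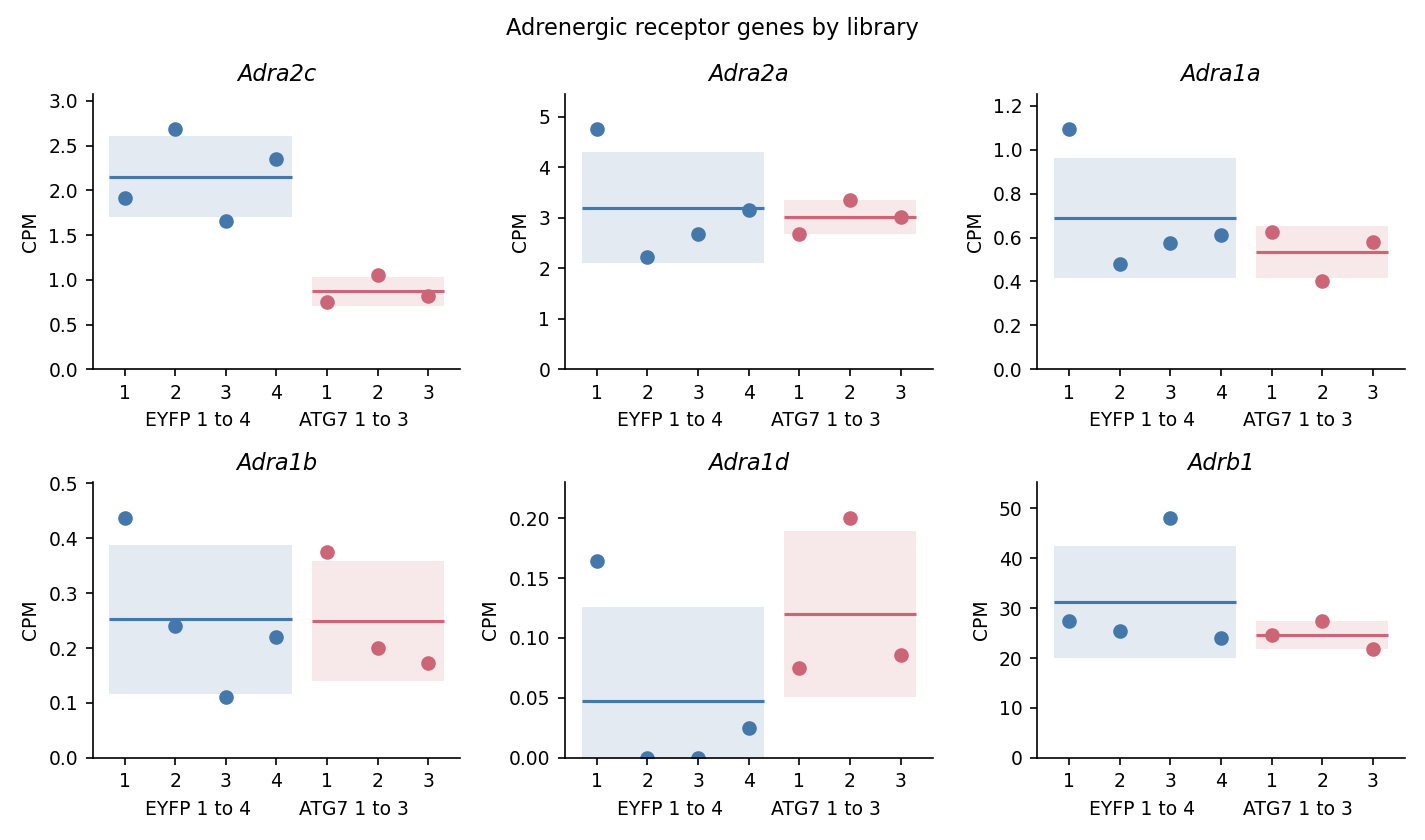
Level of each of the 6 receptor genes in CPM (vertical axes, each from 0 on its own scale) in EYFP 1 to 4 (blue) and ATG7 1 to 3 (red). Points are libraries, lines are group means and bands are 1 SD. Adra2c is the gene whose groups do not overlap, Adra2a, Adra1a and Adra1b are highest in EYFP 1, and Adrb1 is highest in EYFP 3.

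Few reads stand behind the Adra2c values. Their coefficient of variation was 21.1% in EYFP, where counting alone gives 10.7%, and 18.4% in ATG7, where counting gives 16.0%. With 1 library left out at a time, the log2 fold change lay between -1.45 without ATG7 2 and -1.17 without EYFP 2. Without EYFP 3 it was -1.41. Adra2c passed the threshold of an adjusted p under 0.05 in 8 of 15 other fits and missed it in 7, among them the fits without EYFP 2, EYFP 4 or any 1 of the ATG7 libraries. These fits reuse the counts by which Adra2c was chosen, so the passes describe stability and are no support.

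Of the 5 members that could be tested, 1 (Adra2c) had an adjusted p under 0.05 (quasi-likelihood test, edgeR, adjusted after Benjamini and Hochberg), where 0.755% of all 19199 genes did, 0.0677% lower and 0.688% higher in ATG7. This contrast was used to choose the genes, and the count says nothing more about them. Lower levels without overlap between the groups, as in 1 of the 6 members, were found for 4.91% of all genes tested, and higher levels without overlap for 6.33% (11.2% together). All 5 tested members had a negative log2 fold change, with a median of -0.34, where the median of all genes was -0.00365. In 4 of them the groups overlapped. Neither the shared sign nor this median held without EYFP 1, where the values were -1.34 for Adra2c, -0.40 for Adrb1, -0.06 for Adra1a, 0.17 for Adra2a and 0.36 for Adra1b, so that the median was -0.06.

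Adra2a encodes the alpha-2A receptor, the widespread Gi-coupled receptor of noradrenergic neurons and their targets. The gene (ENSMUSG00000033717) lies on the plus strand of chromosome 19 from 54044151 to 54048982, with 4832 bases of exon. Its level was 4.75, 2.22, 2.68 and 3.16 CPM in EYFP 1 to 4 and 2.67, 3.35 and 3.01 CPM in ATG7 1 to 3. The groups overlapped entirely, and EYFP 1 was the highest library. The log2 fold change was -0.08 ± 0.250 (SE), and it was 0.17 when EYFP 1 was left out, so that library set its sign.

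Set against Adra2a in the same library and per exon length, Adra2c was at 0.564, 1.69, 0.869 and 1.04 times Adra2a in EYFP 1 to 4, and at 0.393, 0.442 and 0.381 times in ATG7 1 to 3. Each ATG7 ratio was below each EYFP ratio. This ratio does not depend on the scaling of the libraries. Because Adra2c was chosen for its difference between the groups, the separation restates that difference and is no further support. The means per kb of exon were 0.625 CPM for Adra2c and 0.663 CPM for Adra2a in EYFP, against 0.254 and 0.623 CPM in ATG7.

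Markers of neurons and of choroid plexus were examined beside these genes because alpha-2 receptors are known from neurons and the plexus RNA was abundant. Of 12 neuron markers, 11 were detected in every library, and their sum was 61.7 to 218 CPM in EYFP and 64.1 to 89.9 CPM in ATG7. EYFP 1 was the highest in neuron markers (218 CPM), in astrocyte markers (808 CPM) and in oligodendrocyte markers (518 CPM). It was also the highest library for Adra2a, Adra1a and Adra1b. EYFP 2 came next in the same marker sums, at 124, 640 and 486 CPM. Yet EYFP 2 was the lowest of the 7 libraries for Adra2a (2.22 CPM) and the lowest of EYFP for Adra1a (0.479 CPM). For Adra1b it came next to EYFP 1 within EYFP (0.240 CPM). The part of those cells in these values was not tested. For Adra2c, EYFP 1 ranked below EYFP 2 and EYFP 4.

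The choroid plexus sum was highest in EYFP 2 (72257 CPM) and EYFP 4 (65788 CPM), the libraries with the most Adra2c. It was 54765 CPM in EYFP 1, 56395 CPM in EYFP 3, and 61104, 46379.5 and 55067 CPM in ATG7 1 to 3, so the groups overlapped in this sum. ATG7 1 was above EYFP 1 and EYFP 3 in this sum, yet it had the lowest Adra2c of the 7 libraries (0.749 CPM). Within ATG7, the sum was highest in ATG7 1 and lowest in ATG7 2, the reverse of Adra2c. The part of plexus RNA in the Adra2c levels was not tested. The sum of 6 lymphocyte markers, of which 5 were detected in every library, did not overlap between the groups, at 1.152 to 3.88 CPM in EYFP and 4.07 to 12.1 CPM in ATG7. Between the groups the lymphocyte sum was thus higher where Adra2c was lower. Within EYFP, the sum and Adra2c were both highest in EYFP 2 and both lowest in EYFP 3. Within ATG7, both were lowest in ATG7 1, while the sum was highest in ATG7 3 and Adra2c in ATG7 2. No lymphocyte marker passed the test, and the part of these cells in the result was not tested. Among 8 markers of striatal projection neurons, cells rich in Adra2c, 6 were detected in every library. Ppp1r1b had 10540 to 20988 counts, Six3 had 629 to 1114, Adora2a had 83 to 142 and Rgs9 had 83 to 127. The dopamine receptor genes Drd1 and Drd2 had 1 to 10 and 0 to 2 counts in a library, and Isl1 had 0 to 29. The sum of that list, 311 to 488 CPM in EYFP and 304 to 415 CPM in ATG7, was 92.5% to 94.2% Ppp1r1b. Of the 5 dentate granule neuron markers 4 were detected in every library, and their sum was 118 to 162 CPM in EYFP and 107 to 129.5 CPM in ATG7. Its largest parts were Pdzd2 and Dsp, with means of 67.3 and 39.2 CPM. Prox1 had 598 to 1270 counts in a library, Calb1 had 74 to 290 and C1ql2 had 0 to 11. The sum was highest in EYFP 4 and EYFP 2, the libraries with the highest choroid plexus sums. How much of it came from granule neurons was not tested.

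**Figure D2:**
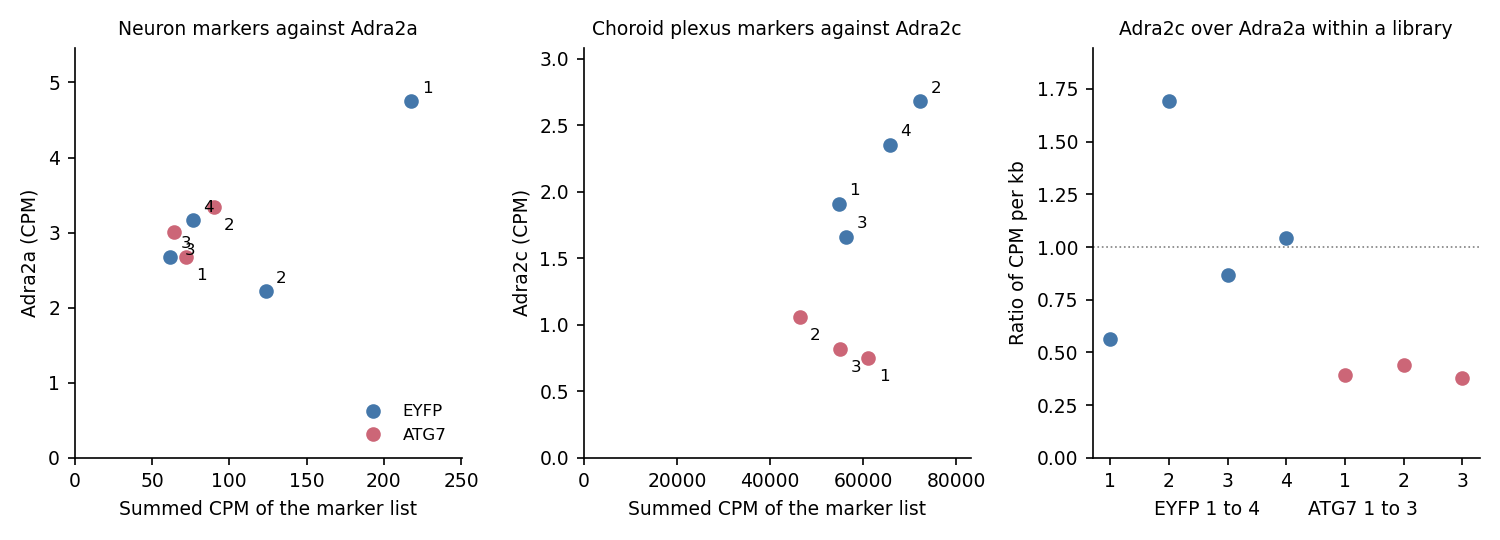
Left and centre: receptor level in CPM (vertical) against the summed CPM of a marker list (horizontal), one numbered point per library, EYFP in blue and ATG7 in red. Right: Adra2c divided by Adra2a, both in CPM per kb of exon, by library. EYFP 1 is highest in both neuron markers and Adra2a, and the 3 ATG7 libraries have the 3 lowest ratios of Adra2c to Adra2a.

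Adrb1, the gene of the beta-1 receptor that couples to Gs, was the most abundant member. It lies on the plus strand of chromosome 19 from 56722199 to 56733113 (ENSMUSG00000035283), with 3382 bases of exon. Its level was 27.4, 25.5, 48.1 and 24.1 CPM in EYFP 1 to 4, from 1005, 1169, 2170 and 981 counts, and 24.7, 27.4 and 21.9 CPM in ATG7 1 to 3. One library, EYFP 3, stood apart from the remaining 6, which lay close together. The EYFP mean was 31.3 ± 11.3 CPM (SD, n = 4), and 25.7 ± 1.70 CPM (SD, n = 3) without EYFP 3, beside 24.6 ± 2.75 CPM (SD, n = 3) in ATG7. As a log2 fold change this was -0.34 ± 0.241 (SE), and -0.06 without EYFP 3. EYFP 3 is the library with Xist, and its sums of neuron markers (61.7 CPM) and oligodendrocyte markers (191 CPM) were the lowest of the 7. The part of either in the Adrb1 level was not tested.

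The 3 alpha-1 receptor genes, which signal through Gq, had the lowest levels of the members, and Adra1d alone fell to the floor of detection. Adra1a (ENSMUSG00000045875, plus strand of chromosome 14, 66635251 to 66771168) was at 1.09, 0.479, 0.576 and 0.613 CPM in EYFP 1 to 4 and at 0.624, 0.400 and 0.580 CPM in ATG7 1 to 3. The groups overlapped, and EYFP 1 alone exceeded the remaining libraries. The log2 fold change was -0.36 ± 0.363 (SE), and -0.06 without EYFP 1.

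Adra1b (ENSMUSG00000050541, minus strand of chromosome 11, 43774606 to 43901210) was at 0.437, 0.240, 0.111 and 0.221 CPM in EYFP 1 to 4 and at 0.375, 0.2001 and 0.172 CPM in ATG7 1 to 3, from 5 to 16 counts in a library. The groups overlapped. The log2 fold change was -0.02 ± 0.523 (SE), and leaving out 1 library moved it between -0.41 without ATG7 1 and 0.36 without EYFP 1, so no direction was detectable at this depth.

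Adra1d (ENSMUSG00000027335, minus strand of chromosome 2, 131545850 to 131562283) had 6, 0, 0 and 1 counts in EYFP 1 to 4 and 3, 11 and 4 counts in ATG7 1 to 3. It did not pass the filter on low counts and was not tested. In 4 of the 7 libraries it was at or under the floor of 3 counts, so its levels cannot be told from the floor in most of them. The groups overlapped, and without EYFP 1 they did not. An antisense gene, Gm14285, overlaps its exons and had 0 to 3 counts in a library. Whether reads were assigned by strand is not given in the sources used here.

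**Figure D3:**
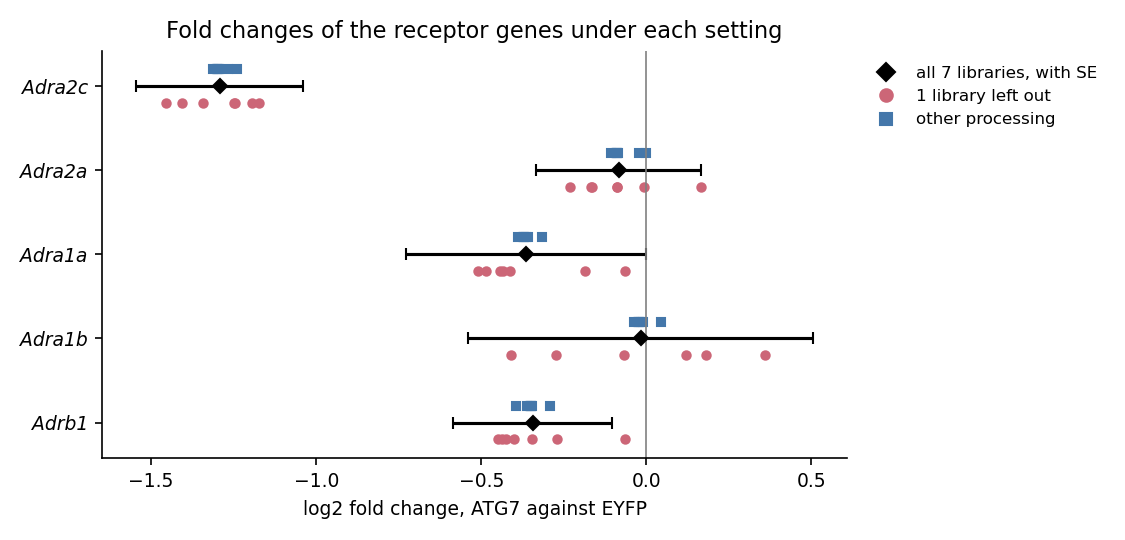
log2 fold change of ATG7 against EYFP (horizontal axis) for the 5 members that passed the filter. Diamonds with bars are the value and SE from all 7 libraries, circles the values with 1 library left out, and squares those with other scaling, filtering or tests. Values of Adra2c stay between -1.45 and -1.17, whereas those of Adra2a and Adra1b lie on both sides of 0.

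Levels of the 6 members, Adrb3 and Adra2b were compared per kb of annotated exon, as the mean over all 7 libraries. Adrb1 led with 8.40 ± 2.63 CPM per kb (SD, n = 7), a mean raised by EYFP 3 at 14.2 CPM per kb. With that library included, Adrb1 was 13.01-fold above Adra2a at 0.646 ± 0.167, followed by Adra2c at 0.466 ± 0.221 and Adrb3 at 0.2201 ± 0.0546. Adra1b (0.0741 ± 0.0340), Adra1a (0.0715 ± 0.0254), Adra1d (0.0413 ± 0.0416) and Adra2b (0.0148 ± 0.0171) were last. The ranges over libraries were separate between Adrb1 and Adra2a and between Adrb3 and Adra1b. Every other pair of neighbours in this order overlapped, so the place of Adra2c between Adra2a and Adrb3, and the order among the last 4 genes, are not resolved. Adra2a (0.460 to 0.983 CPM per kb) lay above Adrb3 (0.146 to 0.298 CPM per kb) in every library.

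**Figure D4:**
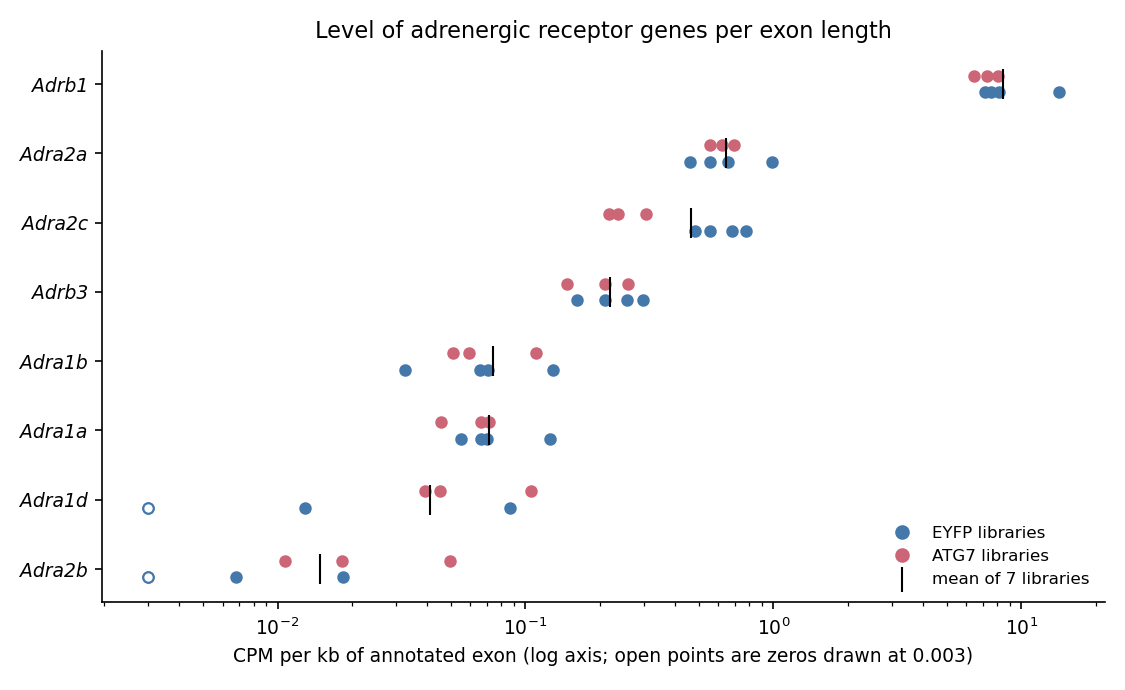
CPM per kb of annotated exon on a log axis for the 6 members, Adrb3 and Adra2b, ordered by mean. Points are libraries (EYFP blue, ATG7 red), ticks are means of 7 libraries, and open points mark libraries with 0 counts, drawn at 0.003 because a log axis has no zero. Adrb1 stands above the alpha receptors in every library, and Adra2c is the gene with its groups apart.

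The beta-3 gene is not among the members, and it did not pass the test. Adrb3, best known from fat tissue, was at 0.781 ± 0.199 and 0.693 ± 0.190 CPM (SD, n = 4 and 3), with a log2 fold change of -0.18 ± 0.322 (SE), at an edgeR adjusted p of 0.887. Its exons overlap those of the antisense gene Gm45470, which had 12 to 40 counts in a library, and their reads may not be separable. Adra2b, the remaining alpha-2 gene, had 0 to 8 counts in a library and was not tested.

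The members' paralogy left little room for reads shared between them. Of the stretches of 50 bases in the annotated transcripts of Adra2c and Adra2a, 0 occurred in a transcript of any other gene, on either strand, and no member shared one with another adrenergic receptor. The share was 5.35% in Adra1d, all with Gm14285, and under 1% in Adra1a, Adra1b and Adrb1. The neighbours of Adra2c on chromosome 5 are far from it. Lrpap1, a receptor chaperone gene 173 kb away, was at 212 ± 13.6 and 201 ± 7.51 CPM (SD, n = 4 and 3), or -0.07 as a log2 fold change (edgeR adjusted p = 0.782), and Hmx1, 107 kb away, had 0 counts in all libraries. Of the tested nearest coding genes of all members, Il12b, a cytokine subunit gene 499 kb from Adra1b, passed the test, at 0.594 CPM in EYFP and 1.92 CPM in ATG7, a log2 fold change of 1.70 (edgeR adjusted p = 0.0293).

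Genes that act with or downstream of the receptors were taken from 7 lists of 112 genes, of which 102 passed the filter. None (0 of 102) passed after adjustment in edgeR's test, where 0.755% of all 19199 genes did. At so small a share, 0 calls tell little about this set. None of the 102 genes passed with DESeq2 or limma-voom either. An unadjusted p under 0.05 was reached by 11 of them, 6 higher and 5 lower in ATG7, where 2300 of all 19199 genes tested reached it. Their median log2 fold change was -0.00159, with 51 genes higher and 51 lower. The absence of calls does not show that the pathway was the same in both groups.

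For 6 of the lists the gene with the smallest p is given. Among G protein subunits (24 tested) it was Gnas, the Gs alpha subunit through which beta receptors act, at 36.1 ± 3.58 and 45.5 ± 6.81 CPM (SD, n = 4 and 3). Its log2 fold change was 0.34 ± 0.109 (SE), at an edgeR adjusted p of 0.235, and the groups overlapped, since ATG7 3 (39.4 CPM) was below EYFP 2 (40.5 CPM). Among genes of cAMP production and its targets (20 tested) it was Adcy5, an adenylyl cyclase that Gi inhibits, at 31.2 ± 5.04 and 23.9 ± 3.91 CPM (SD, n = 4 and 3), or -0.39 as a log2 fold change (edgeR adjusted p = 0.297).

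Among cAMP phosphodiesterases (14 tested) it was Pde1c, an enzyme that breaks down cyclic nucleotides. Pde1c was at 1.72, 0.806, 0.798 and 0.981 CPM in EYFP 1 to 4 and at 0.375, 0.600 and 0.537 CPM in ATG7 1 to 3. The groups did not overlap, and the log2 fold change was -1.07 ± 0.356 (SE), at an edgeR adjusted p of 0.247. In the phospholipase C branch (11 tested) it was Prkcd, a protein kinase C gene, at 351 ± 45.6 and 446 ± 33.05 CPM (SD, n = 4 and 3), or 0.34 as a log2 fold change (edgeR adjusted p = 0.217).

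The receptor kinases and arrestins, which switch activated receptors off, had Grk2 first of 7, at 275 ± 20.3 and 309.9 ± 16.1 CPM (SD, n = 4 and 3), or 0.17 as a log2 fold change (edgeR adjusted p = 0.451). Among RGS proteins (17 tested), which speed up the switching off of G proteins, Rgs11 led with 14.6 ± 3.18 and 10.9 ± 1.91 CPM (SD, n = 4 and 3), or -0.42 as a log2 fold change (edgeR adjusted p = 0.355). Among genes of catecholamine synthesis, transport and breakdown, 9 of 12 were tested, of which 3 were higher and 6 lower in ATG7, with a median log2 fold change of -0.12. The 3 genes of that list that were not tested, named after their counts were seen, mark noradrenergic and adrenergic cells. The enzyme gene Dbh and the transporter gene Slc6a2 had 0 to 2 and 0 to 3 counts in a library, and Pnmt had 0 counts in all.

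**Figure D5:**
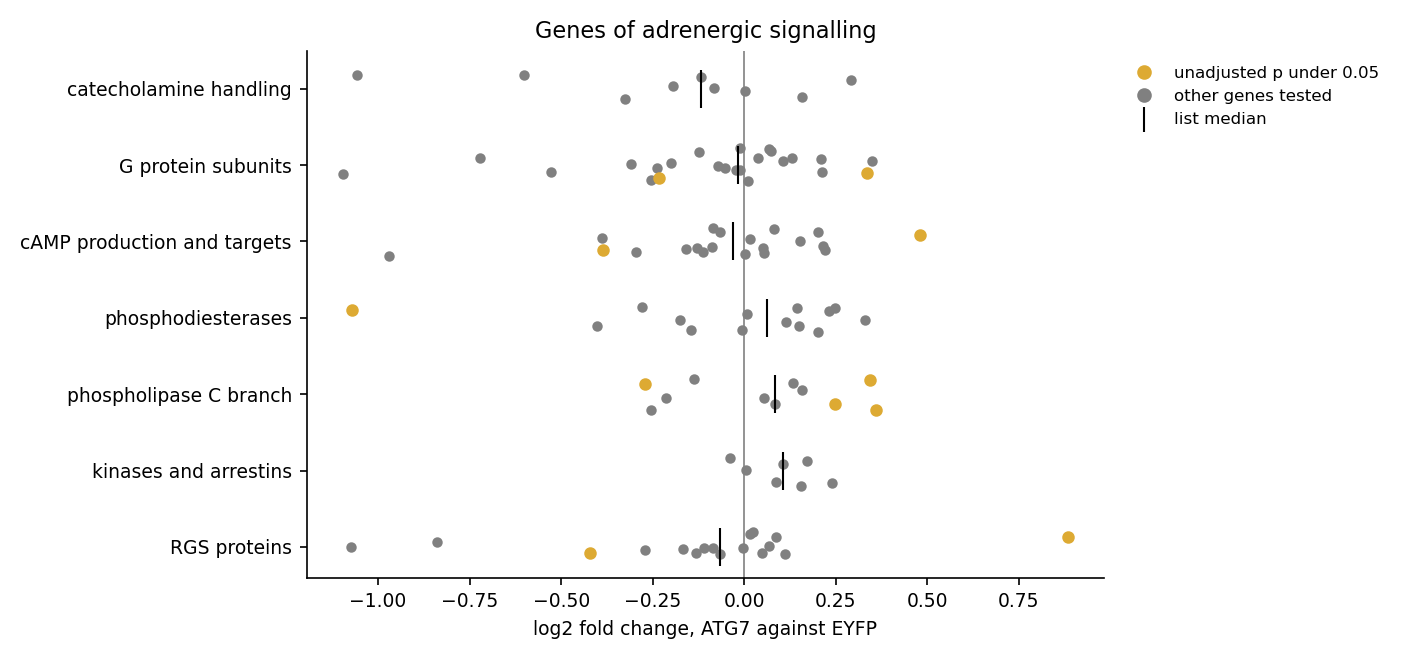
log2 fold change of ATG7 against EYFP (horizontal axis) for each tested gene of the 7 signalling lists (rows). Points are genes, black ticks list medians, and yellow points the 11 genes with an unadjusted p under 0.05. List medians lie between -0.119 and 0.105, and no gene passed after adjustment.

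The genes whose levels followed Adra2c most closely over the 7 libraries were, among 15039 candidates, Herc3 (Pearson r = 0.990), Cdh18 (0.983), Trabd2b (0.983), Ric3 (0.976) and Frmd5 (0.972). All 5 were lower in ATG7 on average, for example Herc3 at 36.7 CPM in EYFP and 23.4 CPM in ATG7. That direction follows from choosing these genes by likeness to Adra2c, whose groups were apart. With the group means removed, their r with Adra2c was between 0.791 and 0.916, and the 5 genes closest by that measure were other genes. With 7 libraries such values are a description: 138 genes had an r above 0.9. For Adrb1 the closest were Xist (r = 0.970), Gm31024 (0.969) and Mid1 (0.962). Xist was high in EYFP 3 alone.

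For Adra2a the closest genes were Zfp850 (r = 0.971), Kctd18 (0.958) and B3gat2 (0.958), for Adra1a they were Insr (0.966), Gm44053 (0.957) and Zfp273 (0.957), and for Adra1b they were Xlr3b (0.981), C4a (0.973) and Mib1 (0.955). The closest genes of these 3 receptors were different in each case. These values all rest on the same 7 libraries.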

How the data were processed

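Gene expression in CD11b-enriched cells of 7 libraries was read from 1 table of raw counts per gene deposited by the authors. The submitters' processing notes list fastp 0.20.1, HISAT2 2.0.5, featureCounts and the builds mm10 and GRCm38, without roles. The annotation release, strand setting and handling of shared reads are not given in the sources used here. All 7 columns matched a library by name, and 0 were left over.

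Symbols and coordinates came from GENCODE M21 (GRCm38), which matched 55141 of 55401 identifiers. Exon lengths are those of all annotated exons merged. The 37 mitochondrial genes had 0 counts. Groups were compared in edgeR 4.0.16 (R 4.3.3, quasi-likelihood, robust), with trimmed-mean factors, filterByExpr and no covariate, two-sided, with Benjamini-Hochberg adjustment over 19199 genes. SE is the absolute log2 fold change over the square root of F. Likeness used log2 CPM with a prior count of 2, among named genes with a mean CPM of at least 1. The fit was first tested on simulated data. Pairs of libraries of a group differed beyond sampling noise (chi-square per degree of freedom 21.0 to 45.4). Alternatives were other scalings, filters, DESeq2 1.42.0, limma-voom (limma 3.58.1), a replicate block and leaving out each library.

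The members, the lists and the rule for naming genes were chosen with earlier results of these data known. That rule names the receptors, the gene with the smallest p of each signalling list (up to 3 where any passed), the closest genes by Pearson r and the nearest coding genes, of which those of Adra2c and any that passed are given. Some genes that the rule names are not reported here. The 6 motifs searched were chosen with the promoter sequences in view. Those not described above were AGGTCA (16.3% of windows, present in that of Adra2c) and TTATGTAA (0.938%, in none of the members'). Marker lists for endothelial, mural and border macrophage cells were also summed: 323 to 511, 238 to 421 and 514 to 632 CPM in EYFP, and 410 to 802, 303 to 379 and 551 to 622 CPM in ATG7.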

Additional observations from a re-analysis of the deposited data

Results flagged for a closer look

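In 2 of 16 genes examined in the EYFP group (adrenergic receptors and signalling genes), 1 library lay far from the other 3 by Dixon's criterion. Chance gives 0.8 among 16. Adrb1 in EYFP 3 was at 48.1 CPM, against 24.1 to 27.4 CPM in the other EYFP libraries. Adra1d in EYFP 1 was at 0.164 CPM, from 6 counts, against 0 to 0.0245 CPM.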

How the results depend on the processing

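Every alternative gave Adra2c a negative log2 fold change. It no longer passed with limma-voom (-1.27), with the replicate block (-1.24) or in 5 of 7 fits without 1 library, which ranged from -1.45 to -1.17. The number of genes called was 145 (91.0% higher), 297 with no filter (78.8% higher), 572 with the DESeq2 Wald test (70.6% higher), 275 at an adjusted p under 0.1, 0 with the replicate block, where 1256 had an unadjusted p under 0.05, and 28 to 277 with 1 library left out, lowest without ATG7 2 and highest without EYFP 1. The cause was not tested. Among signalling genes the number called was 0 in all 16 alternatives, including the replicate block, where no gene of any kind was called. No pairing by replicate number was seen: deviations of same-numbered libraries correlated at -0.182 to 0.0664, none above 0.1. Differently numbered libraries reached 0.215 (EYFP 1 and ATG7 2). With 3 same-numbered pairs, this check cannot settle whether libraries were paired. EYFP 4 adds nothing to the group difference in the fit with the replicate block. The other receptors and named signalling genes gave 199 values, in none of which a call changed. Among the members, Adrb1 still moved from -0.34 to -0.06 without EYFP 3, and Adra2a and Adra1b changed sign without EYFP 1. Counts of 5 to 16 per library limit Adra1b, and Adra1d could not be tested.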
